A study of Mus musculus with 13 samples.

Results

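Innate-like and γδ thymocytes are rare cells of the thymus outside the main path from CD4+CD8+ double-positive to conventional single-positive T cells. γδ T cells carry a receptor built from the γ and δ chains instead of α and β. Innate-like αβ T cells, such as natural killer T and mucosal-associated invariant T cells, depend on the transcription factor PLZF, encoded by Zbtb16, and take on effector programs that produce cytokines already in the thymus. Both kinds include cells that respond to interleukin-1, interleukin-18 or interleukin-23 and can make interleukin-17.

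The cells described here came from split-pool single-cell RNA sequencing with the Parse WT kit and the Parse Mini kit, which give a count of unique molecular identifiers (UMIs) per cell and gene. Each kit received 4 thymic samples, the 2 lobes of 2 female C57BL/6N mice aged 2 months, for which the study's methods give no treatment and no genetic change. The Mini samples are labelled control, and the WT sublibraries, which also held splenic samples, name control and chronic stress together. The Mini kit used other mice than the WT kit, so kit and mice cannot be told apart, and the labels do not tie a sample to a mouse. Lobes of 1 mouse are not independent animals, so p-values below measure the spread between lobes. The samples are called WT 1 to WT 4 and Mini 1-A, 1-B, 2-A and 2-B. The WT library also held 16 samples that are not used here, in which the double-positive gene Rag1 lay between 3.47 and 21.3 UMIs per 1000000 (CPM), against 508 to 937 CPM in the 8 thymic samples.

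A cell with 500 to 25000 UMIs was taken as a member if it held at least 4 UMIs, from at least 2 genes, of Zbtb16, Il18r1, Il23r, Sox13, Scart2 and Trdc. It also had no UMI of the B cell genes Bank1, Ebf1 and Pax5 and at most 1 of Il2ra, a gene of early double-negative cells. This gave 553 members among 58756 cells, or 0.941% (95% exact binomial interval 0.865 to 1.02%), and the other 58203 cells of the same samples were the comparison. The whole series holds 148709 cells in its 2 Parse tables. Since members were chosen by the UMIs of these 6 genes, the levels of those genes are a description only.

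Among the members, Trdc, the constant region of the δ chain, was found in 57.0% of cells, and Il18r1, a chain of the interleukin-18 receptor, in 55.2%. Zbtb16 was found in 48.1%, Scart2, a scavenger receptor of γδ T cells, in 45.4%, Sox13, a transcription factor of γδ cells, in 32.7%, and Il23r, the receptor of interleukin-23, in 13.2%. Trdc was also found in 12.9% of the other cells and in 16.7% of 1154 cells marked as B cells by 3 or more UMIs of Bank1, Ebf1 and Pax5, so a single Trdc UMI separates poorly. Each of the other 5 genes was found in at most 2.15% of the other cells and at most 5.89% of the B-marked cells. The most frequent combination was Zbtb16 with Il18r1, in 120 members, followed by Sox13, Scart2 and Trdc together, in 88, and Scart2 with Trdc, in 62.

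At the threshold itself, 79 members held exactly 4 UMIs and 116 cells stayed outside with 3. The UMIs of Scart1 summed to 68.0 CPM in the former and 33.1 CPM in the latter, those of Blk to 23.6 and 6.01 CPM, and those of Icos to 79.1 and 46.1 CPM. All members together held 103, 114 and 209 CPM, so the cells on either side of the limit had less RNA of these genes than the members as a whole. A further 336 cells reached 4 UMIs but failed on the B cell genes or Il2ra, and 387 had their UMIs from 1 gene only.

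Members made up a small part of every sample. The share was lowest in WT 1, at 0.554% (22 of 3974 cells), had a median of 1.01% and was highest in Mini 1-B, at 1.26% (54 of 4301 cells), with a mean of 0.963% ± 0.261 (SD, n = 8). WT samples averaged 0.804% ± 0.245 (SD, n = 4) and Mini samples 1.12% ± 0.176 (SD, n = 4), with overlapping ranges. The limits on Bank1, Ebf1, Pax5 and Il2ra barred more cells of the WT kit, and the shares count barred cells too. From 2694 of 3952 other cells (WT 1) to 7557 of 9465 (WT 3) met these limits. In the Mini kit it was from 4868 of 5191 (Mini 1-A) to 4049 of 4247 (Mini 1-B). The part of these limits in the difference between kits was not tested. A tissue sample was spread over 2 or 3 first-round wells, and the share per well ran from 0.452 to 1.49%.

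Depth and the mitochondrial share moved with membership. Mitochondrial UMIs averaged 5.10 to 7.84% in the members of a sample and 3.99 to 6.63% in its other cells, higher in members of 8 of 8 samples, and their part in the differences below was not tested. The median member held 9648 UMIs and 3085 genes, against 3049 UMIs and 1380 genes in the other cells. The share rose from 0.143% of cells with 500 to 2000 UMIs to 3.11% of cells with 10000 to 25000 UMIs. With every cell thinned to 2000 UMIs and the 19633 shallower cells left out, the mean share was 0.489%, from 0.312% in WT 1 to 0.720% in Mini 1-A. The shares are therefore those of the rule at the depth of each cell and not frequencies of a cell type. Intervals cover counting error only.

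**Figure D1:**
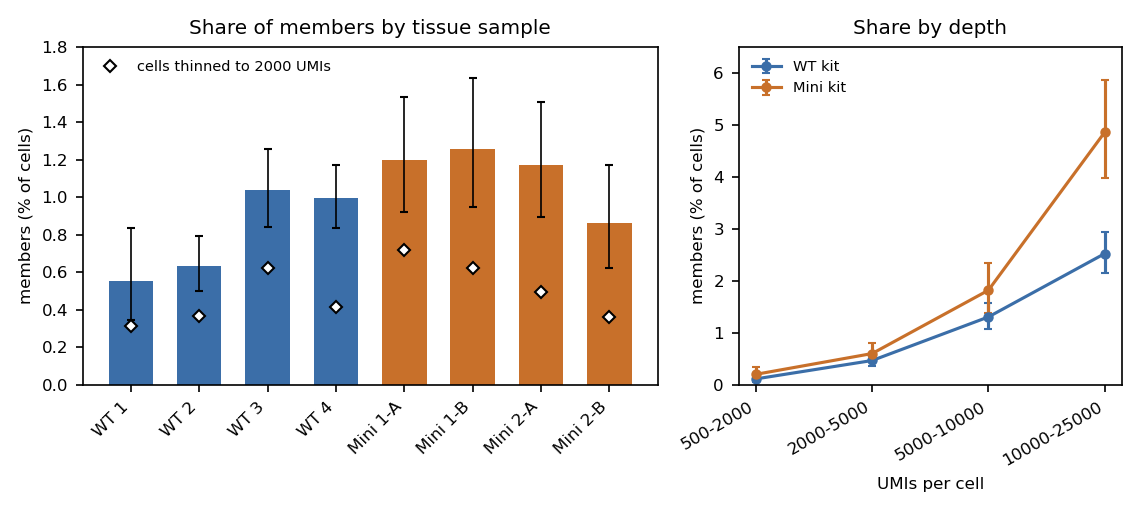
Left, members as a percentage of cells with 500 to 25000 UMIs in each tissue sample, with 95% exact binomial intervals, and the percentage after thinning each cell to 2000 UMIs (diamonds). Right, the same percentage by UMIs per cell in each kit with the same kind of interval, rising to 2.52% in the WT kit and 4.86% in the Mini kit for the deepest cells.

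UMIs were then summed per tissue sample over members and over other cells, and compared for 13075 genes outside the rule by edgeR's quasi-likelihood test with the tissue sample as a block. A gene was called at an adjusted p under 0.05 (Benjamini-Hochberg over all genes) and a change of at least 1 log2 unit. Members had higher levels of 317 genes (2.42% of those tested) and lower levels of 112 (0.857%). The number of lower genes varied with the method, from 54 with depth-matched cells and 59 by DESeq2 to 268 with cells of at most 10000 UMIs, where 503 were higher.

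The genes that rose include transcription factors of γδ and innate-like T cells. Of 26 listed factors, 25 passed the filter on low counts, 8 rose and none fell, and the median log2 fold change was 0.27 against -0.04 over all genes. Maf, a factor needed by interleukin-17-producing γδ cells, ran from 91.7 to 221 CPM in the members of the 8 samples, with a median of 115, and from 3.16 to 7.66 CPM in the other cells. The groups did not overlap, and the log2 fold change was 4.29 (SE 0.14, adjusted p = 2.3e-41). Etv5, an Ets family factor, had a median of 105 CPM in members and 7.65 CPM in other cells and rose by 3.83 on the log2 scale. Sox5, a relative of Sox13, rose by 2.62 and Rora, a nuclear receptor of innate lymphocytes, by 2.40. In the B-marked cells, which were barred from the members, Sox5 was at 261 CPM, near the pooled 254 CPM of members. Tox2 and Id2, an inhibitor of E proteins, rose by 2.38 and 1.57, and all 6 of these genes were higher in members of 8 of 8 samples without overlap. Of all 13075 genes, 1.89% lay wholly above the other cells in this way and 0.535% wholly below.

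Tbx21, the master factor of type 1 responses, and Hlf also rose, on no more than 48 UMIs each in the members. Gata3, with a log2 difference of 0.83 (SE 0.07), stayed under the threshold of size.

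Receptors for cytokines and chemokines formed a second group, with 8 of 28 tested genes higher, none lower and a median log2 fold change of 0.48. Il1r1, the interleukin-1 receptor, lay between 23.5 and 152 CPM in members and between 1.06 and 3.85 CPM in other cells. Its log2 fold change was 5.03 (SE 0.20, adjusted p = 1e-35), among the largest found. Il18rap, the second chain of the interleukin-18 receptor, ran from 29.2 to 65.1 CPM in members and from 1.93 to 3.66 CPM in other cells, a rise of 4.07. On GRCm38 Il18rap (chr1:40515362-40551705) lies beside the rule gene Il18r1 (chr1:40465552-40500854) without overlapping it, and Il1r1 lies upstream of both (chr1:40225080-40317257). The chemokine receptors Ccr2, Cxcr6 and Ccr8 rose by 3.31, 3.13 and 2.40. Il2rb and Il7r, chains of the receptors for interleukin-15 and interleukin-7, rose by 2.68 and 1.96. Ccr6, a chemokine receptor of interleukin-17-producing cells, rose by 1.08 on 47 UMIs in the members, and it missed the call in either kit alone and with depth-matched cells.

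**Figure D2:**
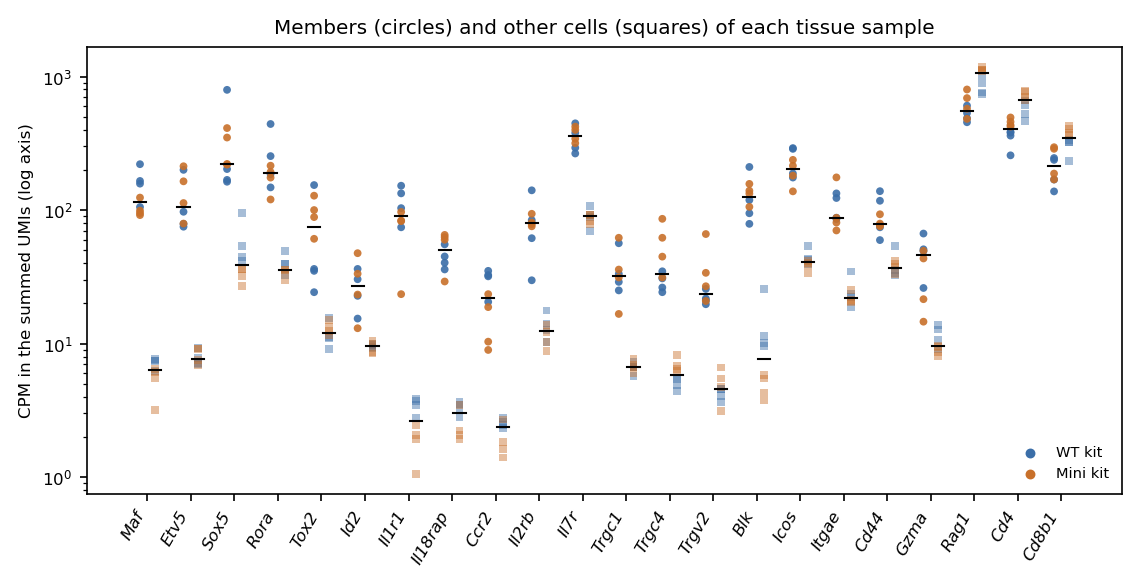
CPM of 22 genes in the summed UMIs of members (circles) and of the other cells (squares) of each of the 8 tissue samples, on a log axis, coloured by kit, with the median as a bar. Members lie above the other cells for every gene from Maf to Gzma, while for the double-positive genes Rag1, Cd4 and Cd8b1 they lie lower in 8 of 8 samples with ranges that overlap.

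Several genes of the γ chain rose. Of 43 listed receptor and signalling genes outside the rule, 26 were tested, 7 rose and none fell, while 15 had a negative log2 fold change and the median was -0.17. The γ constant genes Trgc1, Trgc2 and Trgc4 rose by 2.30, 2.05 and 2.70, and the γ variable genes Trgv2 and Trgv4 by 2.58 and 2.91. Trgc1 lay between 16.7 and 62.0 CPM in members and between 5.72 and 7.62 CPM in other cells. Trgc1 and Trgc2 are close copies of each other, so the division of reads between them is uncertain. Blk, a Src family kinase used by interleukin-17-producing γδ cells and by B cells, ran from 78.8 to 210 CPM in members and from 3.75 to 25.5 CPM in other cells, a rise of 3.84 (SE 0.16). In the B-marked cells Blk reached 105 CPM, and those cells were barred from the members. The δ variable gene Trdv5 rose by 1.42 (adjusted p = 0.047) on 16 UMIs and overlaps Trdc on the other strand, so its call is weak, and Trdv1, another δ variable gene, was at 4.49 CPM in members and 4.39 CPM in other cells.

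Trac, the α constant gene, remained at 80.6 to 148 CPM in members, a log2 difference of -0.32 (SE 0.08). A UMI of any γ constant gene was found in 41.4% of members (229 of 553 cells), in 4.33% of the other cells and in 4.94% of the B-marked cells. The median depths of these groups were 9648, 3049 and 4756 UMIs. In mature thymocytes with Ccr7 or S1pr1, described below, it was 3.32% at a median of 6313 UMIs. A δ variable UMI was found in 11.8% of members and 3.58% of other cells, a ratio near that of their depths. In those mature thymocytes, which were deeper than the other cells, it was 3.91%. Of the 216 γ variable UMIs in members, 128 were of Trgv2, 54 of Trgv4 and 25 of Trgv1. The invariant segments of natural killer T and mucosal-associated invariant T cells gave no test, since none of the 5 listed passed the filter, and 4 of them had no UMI in any class of cells.

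Some effector and natural killer genes were higher in members. Of 28 listed effector genes only 11 passed the filter, 7 of which rose, and of 35 natural killer receptor genes 15 passed, 7 of which rose. Genes under 1 CPM in the other cells, such as Il4, Klrb1c, Klra1, Klra7 and Klra9, could pass the filter only through the members, so these counts carry no weight of their own. Il4, the type 2 cytokine, lay between 1.79 and 46.2 CPM in members and between 0.11 and 0.90 CPM in other cells, on 58 UMIs from 28 members. Its log2 fold change was 4.96 (SE 0.43). Icos, a costimulatory receptor, ran from 138 to 291 CPM in members and from 34.0 to 53.6 CPM in other cells, a rise of 2.31. Gzma, a granzyme, rose by 1.82, Fasl, a ligand of a death receptor, by 2.99, and Tnfsf11, which encodes RANKL, by 1.33. Klrb1c, which encodes NK1.1, rose by 4.08 and Klrk1, which encodes NKG2D, by 3.36. Il17a did not pass the filter and gave 7 UMIs in members against 6 in all other cells. Ifng gave 6 UMIs in members.

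Genes of residence and activation were also among those that rose. Of 24 genes of adhesion, residence and egress, 23 were tested, 6 rose and none fell, among them Itgae, which encodes CD103, by 2.14, Itgb3 by 2.06 and the memory marker Cd44 by 1.17. The list of interleukin-17-associated γδ genes had 7 of 14 tested genes higher, including Maf, Blk and Il1r1 named above, against 2.42% of all genes tested. Another of them, Sdc1, at 0.84 CPM in other cells, could pass the filter only through the members. Ccr6, also among them, missed the call in either kit alone, so this count carries little weight. Of 15 genes induced by the T cell receptor, Icos and Pdcd1, the inhibitory receptor PD-1, rose. Among called genes of at least 20 CPM, Trpm6, an ion channel outside the lists, rose most (5.34), followed by Il1r1. Scart1, the neighbour and family member of Scart2, rose by 4.41. It stands in the list of interleukin-17-associated γδ genes under its other symbol, Cd163l1, and was not among the 14 tested there. Nt5e, the ectoenzyme CD73, rose by 3.69 and Chn2 by 2.64.

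Genes of antigen-presenting cells were among those that fell. Of 7 tested B cell markers 2 fell, and of 10 tested myeloid and dendritic markers 3 fell, with none of either list called higher. Cd74, the invariant chain, had a median of 9.24 CPM in members and 42.7 CPM in other cells, a log2 fold change of -2.28, and the class II gene H2-Ab1 changed by -2.68. Csf1r, of macrophages, was at 2 UMIs in all members. Since the rule removes B-marked cells from the members and not from the other cells, the comparison was also run, after the data were seen, with other cells under the same limits. Then 69 genes fell and 350 rose.

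Members still held the RNA of double-positive genes. Of 18 such genes none passed the threshold of size, although all 18 were lower in members and 17 had an adjusted p under 0.05, with a median log2 fold change of -0.56. Over all 13075 genes, 1984 had an adjusted p under 0.05 by edgeR in either direction. Rag1, which cuts the receptor loci, had a median of 554 CPM in members and 1061 CPM in other cells, a log2 difference of -0.80 (SE 0.06). The 18 genes summed to between 13590 and 20083 CPM in members and between 12248 and 20876 CPM in the B-marked cells. In cells with 500 to 2000 UMIs Rag1 was at 118 CPM in members and 1173 CPM in other cells, whereas in cells with 10000 to 25000 UMIs it was at 622 and 800 CPM. B-marked cells went from 219 to 673 CPM over the same range. Rag1 thus rose with depth in members and B-marked cells and fell with depth in the others, and the part of free RNA or of barcodes with more than 1 cell in this was not tested.

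**Figure D3:**
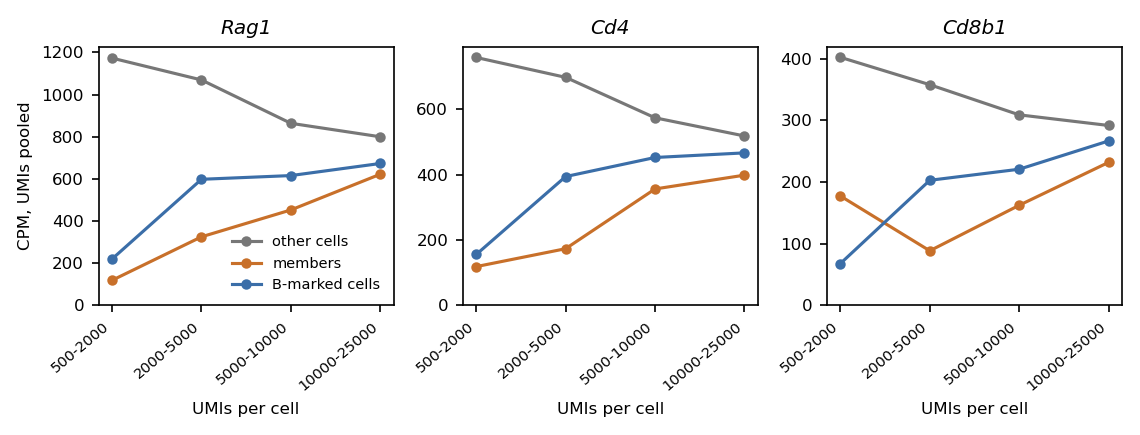
CPM of Rag1, Cd4 and Cd8b1 in UMIs pooled over the 8 tissue samples, by UMIs per cell, for members, B-marked cells and all other cells. For Rag1 and Cd4 the members go up with depth, Rag1 from 118 to 622 CPM, and approach the other cells in the deepest bin.

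Summed markers of B, myeloid, erythroid and stromal cells overlapped between members and other cells, whereas those of natural killer and innate lymphoid cells and of regulatory T cells, through Il2rb, lay higher in members without overlap. The 7 B cell markers summed to 71.7 to 140 CPM in members and 97.6 to 224 CPM in other cells, and the 12 myeloid markers to 8.96 to 99.9 and 55.9 to 102 CPM. Within each sample the B cell sum was lower in members than in other cells. The 10 markers of natural killer and innate lymphoid cells summed to 363 to 816 CPM in members against 171 to 208 CPM in other cells, a list that shares Rora, Gata3 and Klrb1c with the lists above. Of its 6 tested genes all were higher in members and 3 were called, Cd7, Klrb1c and Rora, with a median log2 fold change of 1.46, where Klrb1c passed the filter only through the members. Its defining genes Ncr1, Eomes and Klre1 gave 1, 9 and 15 UMIs in all members. These were 0.21, 1.92 and 3.20 CPM, against 0.27, 0.52 and 0.38 CPM in other cells. The 5 regulatory T cell markers summed to 136 to 219 CPM in members and 89.2 to 114 CPM in other cells, with 16 UMIs of Foxp3. In this list only Il2rb, also counted above as a cytokine receptor, was called, at 84.2 CPM in members and 12.4 CPM in other cells, while Ctla4 was at 65.6 and 78.0 CPM. The part of these markers in the differences above was not tested. The 6 erythroid markers had medians of 4.36 CPM in members and 4.15 CPM in other cells, and the 8 stromal markers to 341 to 646 and 406 to 471 CPM, with 5 of the 8 at 0 in members.

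The members were not uniform. By the genes of the rule, 273 were γδ-marked (at least 2 UMIs of Sox13, Scart2 and Trdc and none of Zbtb16), 142 were Zbtb16-marked (at least 2 UMIs of Zbtb16 and none of those 3 genes), and 138 were neither. Of the last, 56 held 2 or more UMIs on both sides. γδ-marked cells made up 41.3 to 63.4% of the members of a sample and Zbtb16-marked cells 9.76 to 38.1%. Mini 2-B had 4 Zbtb16-marked cells and was left out of the test, which used 7 samples, while the levels below are over all 8. Median depths were 11615 UMIs in γδ-marked and 6726 UMIs in Zbtb16-marked cells. A δ variable UMI was found in 17.6% of γδ-marked (48 cells) and in 2.11% of Zbtb16-marked cells (3 cells). A γ constant UMI was found in 55.7% of γδ-marked and also in 21.8% of Zbtb16-marked cells, and in 31.6% of those with Il23r, so the groups cannot be read as γδ against αβ cells.

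Of 3869 genes tested, 82 (2.12%) were higher in γδ-marked and 106 (2.74%) in Zbtb16-marked members. With cells of at most 10000 UMIs these were 43 and 46 genes, with no filter 217 and 301, and in WT samples alone 51 were higher in γδ-marked members. The B cell marker Ighm was also higher in γδ-marked members, by 1.17, and the 7 B cell markers summed to 71.8 to 149 CPM in these and 21.6 to 98.4 CPM in Zbtb16-marked members, whose part in the differences was not tested. Etv5 ran from 119.5 to 347 CPM in γδ-marked cells and from 0 to 16.3 CPM in Zbtb16-marked cells, where it had 7 UMIs in all. The groups did not overlap, as held for 0.594% of the genes tested in this direction and 1.16% in the other, and the log2 fold change was 4.31 (SE 0.36, edgeR adjusted p = 1.7e-11). Gfra1, a receptor chain for glial cell line-derived factors, was higher in γδ-marked cells by 4.14, and Sox5, Tnfsf11 and Tox2 by 2.49, 2.27 and 1.73. Of 17 listed transcription factors tested, 4 were higher in γδ-marked cells and Rora alone was higher in Zbtb16-marked cells. Etv5 and Tox2, at a pooled 7.71 and 24.2 CPM in Zbtb16-marked cells, passed the filter mainly through γδ-marked cells. The count of 4 factors therefore carries little weight. The same holds for the calls of Gfra1 and Tnfsf11, at a pooled 23.1 and 31.9 CPM in Zbtb16-marked cells.

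Some cytokine receptors and surface molecules were higher in Zbtb16-marked members. Having none of Sox13, Scart2 and Trdc, these cells could meet the rule only with a UMI of the interleukin receptor genes Il18r1 or Il23r, and Il18r1 was found in 99.3% of them and in 23.1% of γδ-marked cells. The comparison is therefore also one of cells chosen for an interleukin receptor with cells that need not have one. Icos lay between 492 and 1323 CPM in Zbtb16-marked and between 27.3 and 59.1 CPM in γδ-marked cells, a log2 fold change of -3.70 (SE 0.16). Il2rb, at 59.0 to 308 CPM against 0 to 43.9 CPM, differed by -3.68, and Il7r, at 566 to 1182 CPM against 89.4 to 287 CPM, by -2.86. Of 17 cytokine and chemokine receptors tested, 5 were higher in Zbtb16-marked cells, the others being Il18rap, Il1r1 and Il17rb, and none in γδ-marked cells. For Il1r1 this rests on the 38 Zbtb16-marked cells with Il23r, at 894 CPM, while the other 104 were at 11.6 CPM, below the 40.7 CPM of γδ-marked cells. Il18rap and Il2rb, at a pooled 16.1 and 20.4 CPM in γδ-marked cells, passed the filter mainly through Zbtb16-marked cells. The count of 5 therefore carries little weight. Itgae and Cd44 differed by -2.21 and -2.35, Nt5e by -5.28, Trpm6 by -5.55 and Chn2 by -3.83. Nt5e and Cd44, at a pooled 7.30 and 38.8 CPM in γδ-marked cells, passed the filter mainly through Zbtb16-marked cells, as did Trpm6. Their calls alone carry little weight. Maf (-0.42, SE 0.19) and Blk (0.74, SE 0.29) were not called between the groups, with adjusted p of 0.14 and 0.087 in edgeR's test. With cells of at most 10000 UMIs the difference in Maf turned to 0.55.

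Cell cycle genes were higher in γδ-marked members. Of 15 such genes 9 passed the filter, and all 9 had an adjusted p under 0.05 and 6 were called, among them Mcm5, a replicative helicase subunit, by 1.51, Cenpf by 1.34 and Top2a by 1.20. Over all 3869 genes, 603 had an adjusted p under 0.05 by edgeR in either direction. Mcm5 and Tyms, at a pooled 25.3 and 24.2 CPM in the smaller sums of Zbtb16-marked cells, passed the filter mainly through γδ-marked cells, so the count of 9 carries little weight. The 15 genes summed to between 2016 and 3965 CPM in γδ-marked cells and between 886 and 2963 CPM in Zbtb16-marked cells. Top2a fell to 0.56 in WT samples alone, under the threshold of size. The γδ-marked cells were also the deeper ones, so the comparison was repeated within limits of depth. Top2a differed by 1.89 with cells of at most 10000 UMIs and by 1.37 with cells of 5000 to 15000 UMIs, an alternative chosen after seeing the data. Cenpf differed by 1.17 in the latter, and 58 genes were then higher in γδ-marked and 69 in Zbtb16-marked cells.

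**Figure D4:**
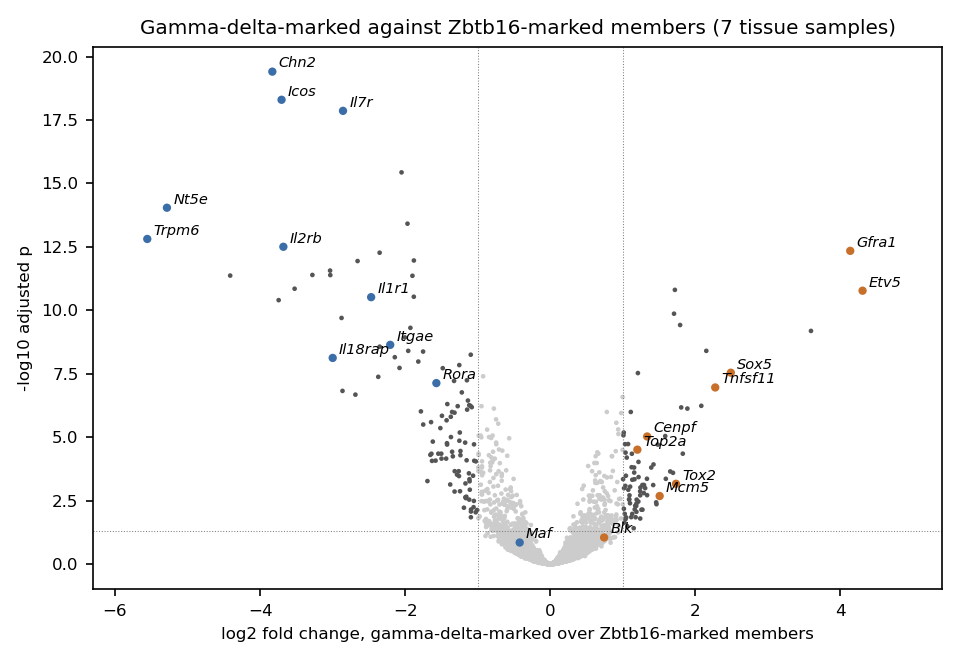
Log2 fold change (γδ-marked over Zbtb16-marked members) and -log10 of the adjusted p for 3869 genes in 7 tissue samples, with called genes in dark grey and named genes coloured by direction. Etv5 and Gfra1 stand at the right, at 4.31 and 4.14, and Trpm6 and Nt5e at the left, at -5.55 and -5.28. These genes passed the filter on low counts mainly through the group where they are higher.

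Several effector genes were too rare for the test and are given as UMIs. Il4 gave 37 UMIs in Zbtb16-marked, 21 in the other members and none in γδ-marked cells, which held more UMIs in all. Il13, another type 2 cytokine, gave 7, 4 and 0. Gzma went the other way, with 144 UMIs in γδ-marked and 2 in Zbtb16-marked cells.

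Zbtb16-marked members with and without Il23r differed further, in a split made after the data were seen and given without a test. The 38 cells with a UMI of Il23r held 197 UMIs of Il1r1 (894 CPM), against 8 (11.6 CPM) in the 104 cells without, and were higher in 8 of 8 samples. Blk was at 290 and 11.6 CPM, Rora at 844 and 205 CPM, and Ccr6 at 77.2 and 5.81 CPM. Il17a gave 5 UMIs with Il23r and none without. On the other side, Klrk1 was at 55.2 CPM (38 UMIs) in cells without Il23r and Fasl at 50.9 CPM (35 UMIs), and neither gave a UMI in cells with it. Each came from 17 of the 104 cells without Il23r, against none of 38 cells, so few cells stand behind the difference. Il4 was at 50.9 CPM without and 9.08 CPM with Il23r, on 35 and 2 UMIs. Tbx21, with 11 UMIs and none, and Il13, with 7 and none, were too sparse to show a difference. Median depths were 6664 UMIs with and 6885 UMIs without Il23r.

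γδ-marked members split by Sox13 and Scart2 also differed. In 25 cells with neither gene, which reached the rule through Trdc with Il18r1 or Il23r, Maf and Etv5 gave no UMI, against 332 and 473 UMIs in the 248 cells with either. Trgc1 and Trgc2 were each at 7.78 CPM in these 25 cells, near the 6.59 and 9.44 CPM of the other thymocytes, and at 45.2 and 63.6 CPM in the 248. Trgc4, however, was at 38.9 CPM in the 25 cells and 50.8 CPM in the 248, against 5.60 CPM in the other thymocytes, on 10 UMIs from 3 of the 25 cells. A δ variable UMI was found in 7 of the 25 cells. A count of 0 allows up to 3 UMIs, which is about 11.7 CPM there, the level that Blk had with 3 UMIs. Tox2 was at 7.78 and 93.8 CPM, while Top2a was higher in the cells with neither, at 1280 and 699.5 CPM, in 7 of 7 samples. Maf, Etv5 and Blk of the γδ-marked cells therefore came almost wholly from those with Sox13 or Scart2.

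**Figure D5:**
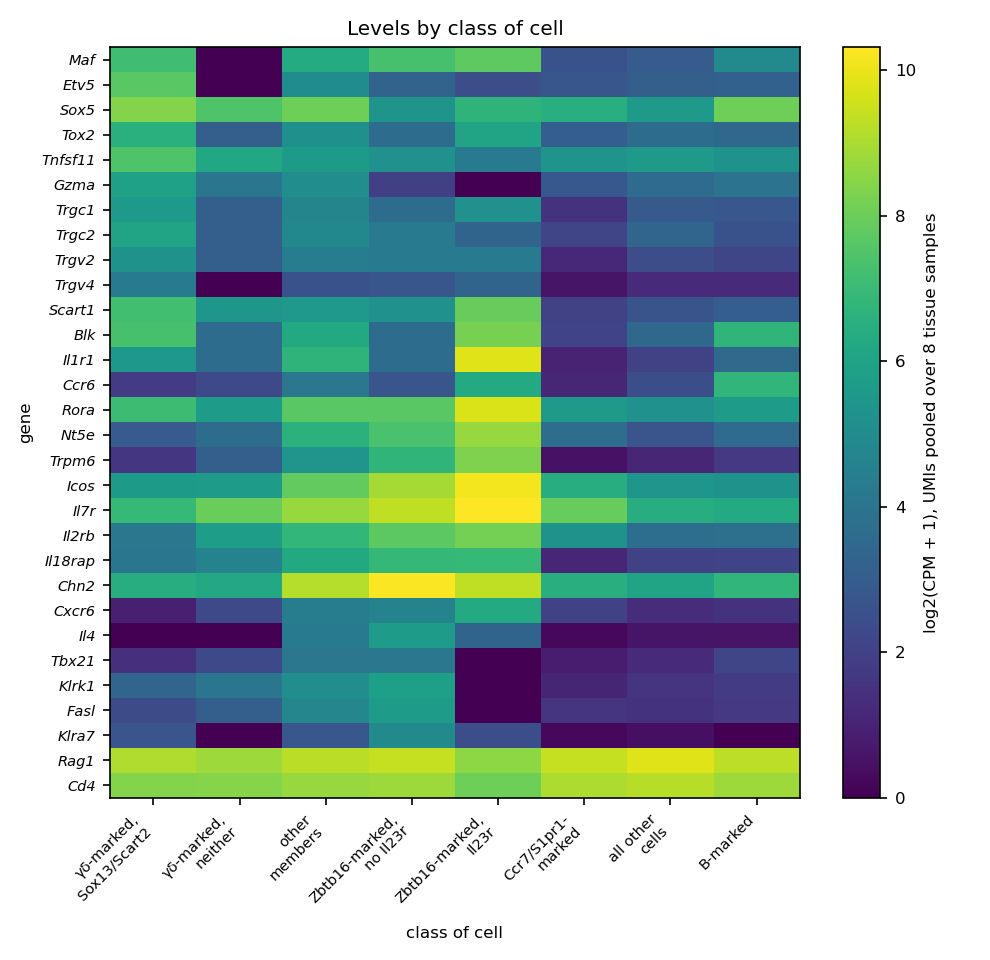
Levels of 30 genes, as log2(CPM + 1) of UMIs pooled over the 8 tissue samples, in subsets of the members, in Ccr7- and S1pr1-marked thymocytes, in all other cells and in B-marked cells. Il1r1 stands out in Zbtb16-marked cells with Il23r (894 CPM), Etv5 in γδ-marked cells with Sox13 or Scart2 (202 CPM), and Il4 in Zbtb16-marked cells without Il23r (50.9 CPM).

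Members were also compared with mature conventional thymocytes, taken as 1867 cells with at least 3 UMIs from at least 2 of 4 genes of mature T cells, among them Ccr7, S1pr1 and Klf2, and no UMI of the 6 rule genes. Their median depth was 6313 UMIs, nearer to that of the members. They too held double-positive RNA, with Rag1 at a pooled 671 CPM, against 566 CPM in members. Between their cells with 500 to 2000 and with 10000 to 25000 UMIs, Rag1 went from 161 to 807 CPM, and its source was not tested. None of the 18 double-positive genes was called here, and their median log2 fold change was -0.14. Of 8489 genes tested, 152 (1.79%) were higher and 75 (0.883%) lower in members. Il1r1 rose by 6.38 (SE 0.27), Il18rap by 5.29, Blk by 5.16, Maf by 4.68 and Etv5 by 4.27, each in 8 of 8 samples without overlap, as held for 1.45% of all genes tested. In the mature cells these genes were at a pooled 1.00, 1.16, 3.24, 4.98 and 5.73 CPM, in the order named. They passed the filter mainly through the members, so their calls alone carry little weight. The γ chain genes Trgc1, Trgc4 and Trgv2 rose by 4.11, 3.86 and 4.35. All 4 γ constant genes together gave 93 UMIs in the mature cells, and all 7 γ variable genes gave 30. Their calls therefore also came mainly through the members and carry little weight alone. Icos and Il2rb, which mature cells also use, rose by 1.30 and 1.15.

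Lower genes in the lists were 2 of 20 tested transcription factors, Bach2 and Zbtb7b, 1 of 15 genes of adhesion and egress, Cd2, 1 of 4 regulatory T cell markers, Ikzf4, and 1 of 2 B cell markers, Cd74. Bach2, a repressor that keeps T cells naive, ran from 375 to 612 CPM in members and from 1074 to 2215 CPM in the mature cells, a log2 fold change of -1.54 (SE 0.08). Zbtb7b, the factor of the CD4 lineage, changed by -1.26, the adhesion gene Cd2 by -1.40 and Ms4a4b by -1.91. Iigp1, an interferon-induced GTPase, changed by -1.90 and Ifi214, of an interferon-inducible family, by -1.83. All 15 cell cycle genes had an adjusted p under 0.05 with higher levels in members, 2 of them past the threshold of size, Cdk1 by 1.12 and Ccnb1 by 1.15, and Mki67 was at 0.74. Over all 8489 genes, 1862 had an adjusted p under 0.05 by edgeR in either direction.

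The contrast between members and other cells differed little between the kits. Of 13075 genes, 5 (0.0382%) differed by at least 1 log2 unit at an adjusted p under 0.05, all with the higher log2 fold change in the Mini kit, and 529 had an unadjusted p under 0.05. DESeq2 called 1. Blk rose by 3.15 in WT samples and by 4.74 in Mini samples, a difference of 1.59 (SE 0.24, adjusted p = 8.6e-06 in edgeR). Its level in members was alike, 125.7 and 133.8 CPM on average, whereas in the other cells it was 14.1 CPM in WT and 4.82 CPM in Mini samples.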

How the data were processed

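Each sublibrary was run by the authors through split-pipe with an mm10 reference from Ensembl, and the deposited values are UMI counts per cell and gene, not normalized, with a cell table and a gene list. The split-pipe version was not given in the sources used here. For each cell, the cell table's counts of UMIs, sample and first-round well were used, and each cell's tissue sample was read from it, since the deposited samples are sublibraries. No per-sample column was left unmapped (0). The 10x libraries were not analysed here.

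Members, comparison classes and gene lists were chosen with earlier results of these data known. UMIs were summed per tissue sample and class, leaving out 3 ribosomal RNA genes, and tested with edgeR 4.0.16 in R 4.3.3 (TMM, filterByExpr, quasi-likelihood, tissue sample as a block, Benjamini-Hochberg adjustment). A sample needed 10 members, or 5 cells in each arm within members. Standard errors are the absolute log2 fold change divided by the root of F. The fits were tested on simulated data first. DESeq2 1.42.0 served as an alternative. The rest used Python 3.11.15, numpy 2.4.6, scipy 1.17.1 and pandas 2.3.3. Genes named are those of the lists, plus the 20 highest and 15 lowest called genes of the first comparison and of that within members (10 each of the third) with at least 20 CPM in the higher arm. Genes of the kit difference and of the splits by Il23r, Sox13 and Scart2 were named after their values were seen. Positions are GENCODE M21 on GRCm38, in which all 126 genes looked up were found.

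The 8 sums of members held 234689 to 1699967 UMIs. No doublet caller was run, and only the upper limit of 25000 UMIs bears on doublets. The paper called doublets computationally in both Parse libraries, a smaller part in the Mini kit, and annotated cells after removing them. Such cells were not removed here, and their part in the results was not tested. Well combinations recur between sublibraries, 9020 in the WT kit (41838 cells) and 1360 in the Mini kit (20085 cells), among them those of 204 members, and the sublibrary tells such cells apart. The labels give both kits the same sublibrary numbers, which pair no tissue samples, so the block is the tissue sample. Results for some genes of the lists are not reported here.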

Additional observations from a re-analysis of the deposited data

Results flagged for a closer look

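In 70 groups of 4 samples (3 shares and 32 genes with at least 100 UMIs in members, in each kit), 7 held a sample far from the others by Dixon's test, which chance alone gives in about 1 of 20 groups. WT 1, with 22 members, stood above the other WT samples in Sox5 (795 CPM against 163 to 203), Tox2 (154 against 24.3 to 36.2), Tnfsf11 (308 against 105 to 131) and Pdcd1 (97.5 against 31.1 to 37.7). Of its 155 Sox5 UMIs 61 came from 1 cell. In the Mini kit, Itgae was high in Mini 1-B (176 CPM against 70.4 to 87.5), Clnk was high in Mini 2-A (89.6 against 10.4 to 15.6) and Il18rap was low in Mini 1-A (29.2 against 59.9 to 65.1).

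The log2 fold change of members over other cells was higher in the Mini than in the WT kit for 6 genes outside the rule, by the edgeR interaction test. The differences on the log2 scale were 1.59 for Blk, 0.93 for Sox5, 3.36 for Ralyl, 2.11 for Dscam, 4.29 for Cd80 and 10.1 for Adam23. Ralyl and Dscam rested on 19 and 33 UMIs in WT members, and Adam23, fitted at -10.26 in WT and 0.21 in Mini samples, is no measure of size.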

How the results depend on the processing

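The limit of 15% mitochondrial UMIs removed no member and no mature thymocyte, so its refits say nothing about stability and are not counted here. Of 2224 other checks of single genes, 2150 left the call as it was, 47 lost it, 26 gained it and 1 turned, Maf between γδ-marked and Zbtb16-marked members (0.55 with cells of at most 10000 UMIs). Leaving out 1 tissue sample gave 294 to 322 genes higher and 87 to 114 lower in members, 66 to 106 higher and 85 to 143 lower in γδ-marked against Zbtb16-marked members, and 134 to 176 higher and 67 to 89 lower against mature thymocytes. The mean share of members ran from 0.921 to 1.02%. With no replicate block these counts were 319 and 96, 77 and 109, and 154 and 80.

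Among members against other cells, 59 genes fell by DESeq2, 65 in WT samples, 63 in Mini samples, 54 with depth-matched cells, 69 under equal exclusions and 268 with cells of at most 10000 UMIs, where 503 rose and the median of all genes lay at -0.13. With no filter that median was -0.43. Within members, γδ-marked cells had 51 genes higher in WT samples, 43 with at most 10000 UMIs and 217 with no filter, and Zbtb16-marked cells had 46 higher with at most 10000 UMIs, 69 with 5000 to 15000 UMIs and 301 with no filter. Against mature cells, no filter gave 352 and 176. Kits differed in 1 gene by DESeq2. The share fell to 0.489% with thinned cells. The equal exclusions and the range of 5000 to 15000 UMIs were chosen after seeing the data. The cause of these moves was not tested. Il17a and Ifng had too few UMIs for a test.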
